A study of Mus musculus with 6 samples.

Results

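The genes described here are 10 genes of prostaglandin synthesis and reception, chosen by name: Ptgs1, Ptgs2, Ptges, Ptgis, Ptgds, Ptger1, Ptger2, Ptger3, Ptger4 and Ptgfr. All 10 were found among the 41126 genes listed in RNA-seq of mouse dermal fibroblasts taken at postnatal day 4. The study asked which transcripts respond when β-catenin, the transducer of canonical Wnt signaling, can no longer be degraded. The 3 GOF (gain of function) cultures were labelled AdCre with the allele Ctnnb1{delta}ex3/+, in which Cre carried by an adenovirus removes the exon needed for β-catenin degradation. The 3 control cultures were labelled AdGFP and +/+, whereas the study's text describes controls that carry the same allele and received an adenovirus with GFP. One protocol label, shared by every culture, names adCre at 366 to 500 MOI for 6 hours in serum-free medium. All cultures shared the CD1, C57Bl6 background and were grown in medium with fetal bovine serum. Virus and β-catenin thus changed together between the groups, and their parts cannot be told apart. By their labels the cultures derive from 4 animals. One animal is the source of GOF replicate 2 and of control replicate 0, a second that of GOF replicate 0 and of control replicate 2, and the remaining cultures (replicate 1 of either group) have an animal each. Each animal that gave both cultures thus carries both genotype labels. If the animal numbers hold, +/+ cannot be the inherited genotype of control replicates 0 and 2. For control replicate 1 the labels do not settle the genotype.

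Prostaglandins are short-lived lipid signals made from arachidonic acid. Phospholipases A2 free the acid from membranes, the cyclooxygenases (Ptgs1, the constitutive form, and Ptgs2, the inducible form known as COX-2) turn it into PGH2, and a terminal synthase sets which prostanoid results: Ptges makes PGE2, Ptgis prostacyclin and Ptgds PGD2. The products leave the cell and act on G protein-coupled receptors. PGE2 has the receptors EP1 to EP4 (Ptger1 to Ptger4), of which EP1 raises calcium, EP2 and EP4 raise cAMP, and EP3 mostly lowers cAMP, whereas PGF2α acts through FP (Ptgfr). In skin, dermal fibroblasts are a known source of PGE2, which takes part in inflammation, wound repair and the restraint of collagen synthesis.

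The libraries held 35980831 to 42834467 fragments. Axin2, the standard reporter of β-catenin activity, was at 0.152 ± 0.0218 FPKM (SD, n = 3) in control and 17.5 ± 2.66 in GOF libraries, and Ctnnb1 itself, whose gene-level value does not show the removed exon, was at 267 ± 16.3 and 263 ± 28.8. FPKM are fragments scaled by transcript length and library size, so that levels of different genes can be compared. All 7 fibroblast markers were detected, with a summed level of 2985 to 3775 FPKM in control and 2453 to 2974 in GOF libraries, and Col1a2 and Dcn were lower in GOF. Markers of the other cell types that a dermal culture could hold summed to 0.156 to 32.9 FPKM per library for macrophages, mast cells, endothelium, keratinocytes, melanocytes and pericytes or smooth muscle, with overlapping groups for each of the 6 lists, although Csf1r and Kdr were called higher and Tek lower. The 5 adipocyte markers summed to 7.18 to 8.95 FPKM in control and 1.8 to 3.17 in GOF libraries through Fabp4, with Adipoq, Plin1, Cidec and Lep at no more than 3 fragments in each library. The 6 skeletal muscle markers summed to 22.7 to 26.7 and 137 to 171 FPKM through Acta1, with Myod1, Ckm and Pax7 at no more than 3 fragments. The part of these shifts in the results below was not tested.

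Both cyclooxygenase genes, the PGE2 synthase gene Ptges and the EP3 receptor gene Ptger3 were higher in GOF than in control fibroblasts, and the PGF2α receptor gene Ptgfr was lower. Of the 10 genes, 9 passed the filter on low counts. A gene was called where edgeR's quasi-likelihood test gave a Benjamini-Hochberg adjusted p under 0.05 and the fold change exceeded 2. By that rule 4 of the 9 were higher and 1 was lower, where 6.69% of all 15462 tested genes were called higher and 5.64% lower. The control and GOF ranges of FPKM were separate for 6 of the 9, against 39.5% of all tested genes. The median log2 fold change was 0.73 over the 9 genes and -0.02 over all tested genes. The 0.73 is the value of Ptger2, a low gene that was not called (edgeR adjusted p = 0.419). Its groups overlapped, and its interval ran from -0.64 to 2.09, so the median does not show a general rise. Because the 10 genes were chosen with earlier results of these data known, these comparisons with all genes are not a test of the set. In bulk RNA, a change in the level per cell and a change in the share of cells that express a gene cannot be told apart.

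**Figure D1:**
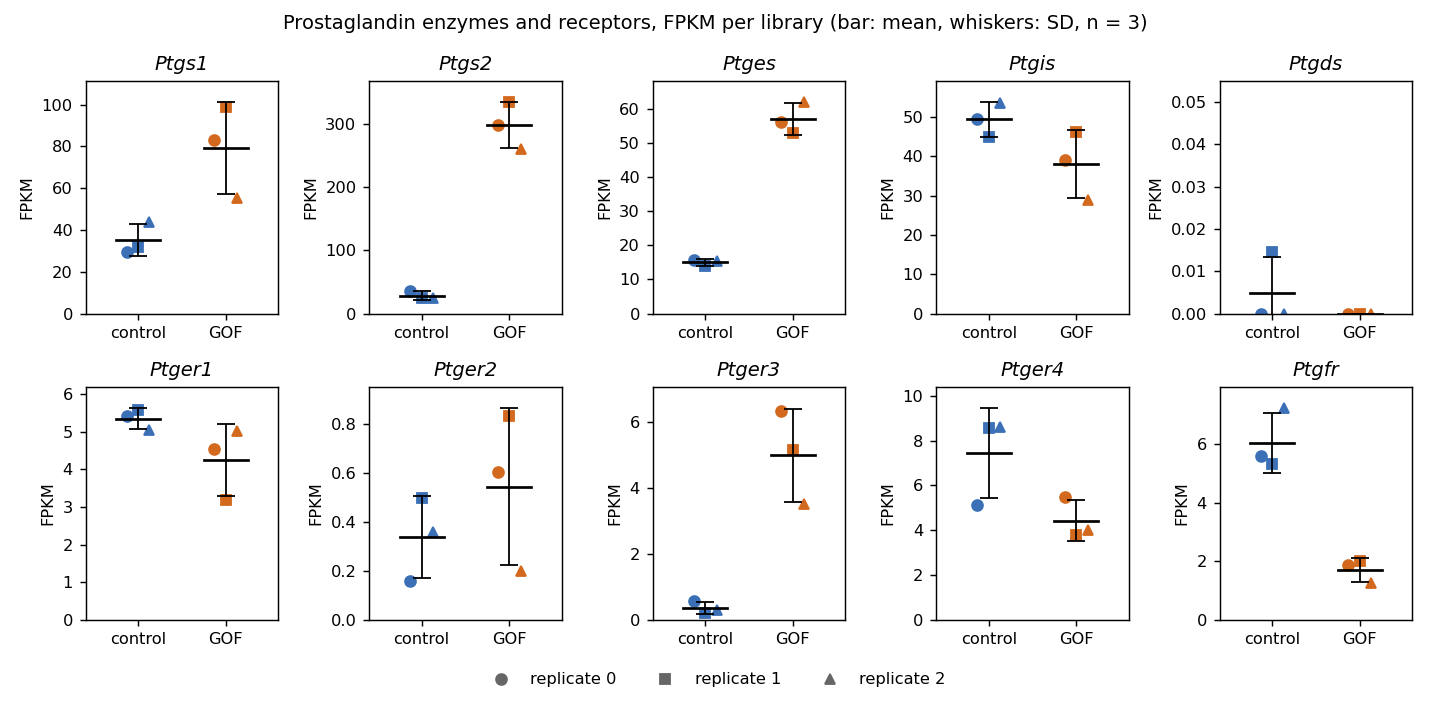
FPKM (vertical axis, linear, from 0) of each of the 10 genes in the 3 control and 3 GOF libraries, one panel per gene, with the mean as a bar and the SD as whiskers. Ptgs2, Ptges and Ptger3 show GOF points well above all control points and Ptgfr shows them below, whereas the points of Ptgis, Ptger2 and Ptger4 overlap. The Ptgds points lie at or near 0.

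Ptgs2 had the highest GOF level of the 10 genes. Its level was 36.3, 25.2 and 24.2 FPKM in control replicates 0, 1 and 2, and 298, 334 and 261 FPKM in GOF replicates 0, 1 and 2. Every GOF library lay above every control library by a wide margin, and the change was larger than the spread within either group (28.6 ± 6.68 against 298 ± 36.4, SD, n = 3). The log2 fold change was 3.40 (SE 0.25, 95% interval 2.82 to 3.98, edgeR adjusted p = 0.000276), a 10.5-fold higher level, and it ranked 153rd among the 1034 genes called higher. The mean moved from the 82.2nd to the 98.2nd percentile of tested genes. Within the animals that gave both cultures, the GOF culture was higher by 2.69 and 3.64 on the log2 CPM scale (counts scaled to library size). The value stayed between 3.17 and 3.61 over 16 alternative settings.

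Ptgs1 (chromosome 2, 36230426 to 36252272, plus strand) rose less. Its level was 29.6, 31.9 and 44.0 FPKM in control and 83.3, 98.9 and 55.3 FPKM in GOF replicates 0, 1 and 2. The groups did not overlap, but GOF replicate 2 came closest to the highest control, replicate 2. This was a log2 fold change of 1.17 (SE 0.23, 95% interval 0.63 to 1.72, edgeR adjusted p = 0.0118). The call rested on single libraries, since the log2 fold change was 0.98 without GOF replicate 1, and without control replicate 1 the adjusted p was 0.0528. With the animals as a replicate block it was 0.89 (adjusted p = 0.00478), which is below the 2-fold threshold. That block's fold change comes from the 2 animals with both cultures, whose within-animal differences were 0.84 and 0.94 on the log2 CPM scale.

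The balance of the cyclooxygenase genes differed between the groups. The Ptgs2 level divided by the Ptgs1 level, both in FPKM, was 1.23, 0.79 and 0.55 in control and 3.58, 3.38 and 4.73 in GOF libraries. The control ratios lay on both sides of 1, and in each GOF culture Ptgs2 was above Ptgs1. The exact permutation test of a ratio like this cannot give a two-sided p below 0.1 with 3 against 3 libraries.

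Ptgs2 lies on chromosome 1 (150100031 to 150108227, plus strand, mm10), and the long noncoding RNA gene Ptgs2os starts 67 bases before it on the opposite strand (150074873 to 150099963). The 150 bases before the Ptgs2 start (RefSeq, GRCm38.p6, chr1:150099881-150100030, plus strand) are shown because they hold the 67 bases between the starts. Both genes are transcribed away from those 67, which are in capitals, and the lower-case bases lie within Ptgs2os. GC content of those 67 bases was 56.7%.
Ptgs2: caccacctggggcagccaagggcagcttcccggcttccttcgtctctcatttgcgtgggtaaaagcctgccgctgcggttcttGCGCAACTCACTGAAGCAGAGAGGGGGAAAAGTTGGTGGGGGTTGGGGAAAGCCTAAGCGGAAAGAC
Ptgs2os was at 0.716, 0.627 and 0.506 FPKM in control and at 1.21, 1.38 and 1.17 in GOF libraries, from 43 to 145 fragments per library. The groups did not overlap, and the log2 fold change was 1.17 (SE 0.28, 95% interval 0.53 to 1.81, edgeR adjusted p = 0.0229). Both neighbours were thus called higher, the coding gene from a mean level of 28.6 FPKM and the noncoding one from 0.617 FPKM.

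Of the terminal synthases, the gene for the inducible PGE2 synthase rose evenly in all cultures. Ptges (chromosome 2, 30889471 to 30929863, minus strand) was at 15.8, 13.9 and 15.3 FPKM in control and 56.2, 52.8 and 61.9 in GOF libraries. The replicates of each group lay close together and far from the other group. The log2 fold change was 2.05 (SE 0.11, 95% interval 1.81 to 2.30, edgeR adjusted p = 9.24e-05), the smallest SE among the 9 tested genes, and the within-animal differences were 2.08 and 2.01. It was 1.86 to 2.08 over the alternatives. Of the 10 genes, Ptges had the smallest adjusted p.

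The gene for prostacyclin synthase did not share this rise. Ptgis (chromosome 2, 167191805 to 167240604, minus strand) was at 49.6, 44.9 and 53.7 FPKM in control and 39.1, 46.2 and 29.0 in GOF libraries. GOF replicate 1 lay within the control range and the other 2 lay below it. The log2 fold change was -0.42 (SE 0.16, 95% interval -0.79 to -0.06), with an edgeR adjusted p = 0.0936 and an exact permutation p = 0.2. The adjusted p ranged from 0.0194, with cultures of the same animal allowed to correlate (limma), to 0.22, and no setting took the change past 2-fold. Ptgis was the most abundant synthase gene of the 3 in control cultures, at 49.4 ± 4.4 FPKM against 15.0 ± 0.998 for Ptges, whereas in GOF cultures Ptges was at 57.0 ± 4.6 and Ptgis at 38.1 ± 8.62 FPKM. The order of the 2 levels was the same in all 3 libraries of a group and opposite between groups. Ptgds (chromosome 2, 25466709 to 25470046, minus strand), the gene for the lipocalin-type PGD2 synthase, had 1 fragment in control replicate 1 and 0 fragments in the other 5 libraries, so it was not tested. At this depth a count of 0 allows up to 3 fragments in a library.

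**Figure D2:**
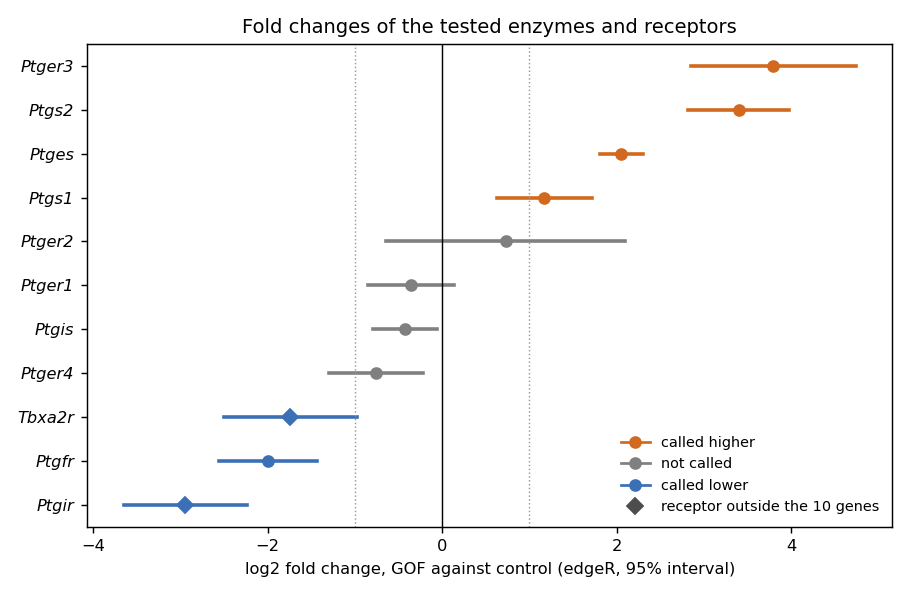
Log2 fold change, GOF against control (horizontal axis), with the 95% interval as a line, for the 9 tested genes and, as diamonds, the receptor genes Ptgir and Tbxa2r; dotted lines mark a 2-fold change. Ptger3, Ptgs2, Ptges and Ptgs1 lie to the right and Ptgfr, Ptgir and Tbxa2r to the left, with the interval of Ptger2 wide (-0.64 to 2.09) and crossing 0.

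The 4 PGE2 receptor genes moved in different directions. Ptger3 (EP3, chromosome 3, 157566892 to 157645888, plus strand) was at 0.567, 0.202 and 0.313 FPKM in control libraries, from 37, 16 and 24 fragments, and at 6.34, 5.16 and 3.52 FPKM in GOF libraries, from 484, 380 and 265 fragments. All GOF libraries lay above all controls, although GOF replicate 2 was the lowest of the 3. The log2 fold change was 3.79 (SE 0.41, 95% interval 2.85 to 4.74, edgeR adjusted p = 0.00108), the largest rise among the 10 genes, and it was 2.12 to 4.25 over the alternatives. The within-animal differences were 2.54 and 4.23 on the log2 CPM scale.

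Ptger4 (EP4, chromosome 15, 5206661 to 5244187, minus strand) was at 5.11, 8.57 and 8.61 FPKM in control and 5.47, 3.80 and 4.01 in GOF libraries. Control replicate 0 lay below GOF replicate 0, so the groups overlapped. On the log2 scale the difference was -0.76 (SE 0.23, 95% interval -1.30 to -0.22, edgeR adjusted p = 0.0547), and the exact permutation p was 0.2. The adjusted p was 0.0139 without control replicate 0 and 0.0174 with DESeq2, and it ranged from 0.0139 to 0.168 over the alternatives, where the log2 fold change was never past -1 (-0.96 to -0.53). Both within-animal differences were negative, at -0.41 and -0.65.

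Ptger1 (EP1, chromosome 8, 83666678 to 83672753, plus strand) was at 5.41, 5.59 and 5.05 FPKM in control and 4.54, 3.19 and 5.02 in GOF libraries. The lowest control and the highest GOF library differed by little, and the log2 fold change was -0.36 (SE 0.21, 95% interval -0.85 to 0.14, edgeR adjusted p = 0.278). Its values are uncertain, because the study names standard Cuffdiff settings for stranded libraries and does not state whether counting used the strand. Ptger2 (EP2, chromosome 14, 44988195 to 45003820, plus strand) was low throughout, at 0.16, 0.496 and 0.356 FPKM in control and 0.601, 0.829 and 0.197 in GOF libraries, from 21 to 124 fragments. The groups overlapped widely, and with a log2 fold change of 0.73 (SE 0.59, 95% interval -0.64 to 2.09, edgeR adjusted p = 0.419) the interval for Ptger2 holds no change as well as a rise of more than 2-fold.

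The sum of the 4 receptor levels was similar in both groups, while its make-up was not. Ptger1 to Ptger4 summed to 11.2, 14.9 and 14.3 FPKM in control and 17.0, 13.0 and 12.7 in GOF libraries. Ptger3 supplied 5.05, 1.36 and 2.18% of the sum in control and 37.4, 39.7 and 27.6% in GOF libraries. Ptger4 supplied 45.4, 57.7 and 60.1% of the sum in control and 32.3, 29.3 and 31.4% in GOF libraries. Neither share overlapped between groups. Because shares of a sum depend on each other, the rise of Ptger3 by itself lowers the share of Ptger4, whose own FPKM overlapped between groups. Per library, the Ptger3 level divided by the Ptger4 level was 0.0236 to 0.111 in control and 0.878 to 1.36 in GOF, so the transcript of the receptor that mostly lowers cAMP went from a small fraction of that of EP4 to a similar level. These shares are of transcripts, include the uncertain Ptger1 values, and carry no test beyond those of the single genes.

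**Figure D3:**
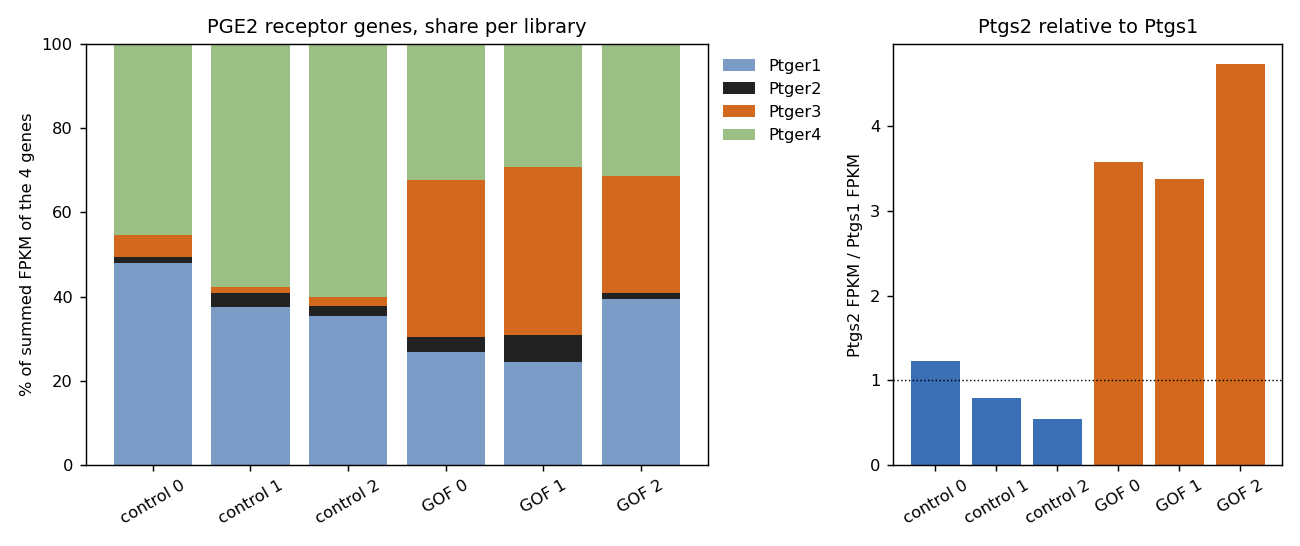
Left, share of each PGE2 receptor gene in the summed FPKM of Ptger1 to Ptger4 (vertical axis, %), one stacked bar per library; right, Ptgs2 FPKM divided by Ptgs1 FPKM per library, with a dotted line at 1. The Ptger3 segment is 1.36 to 5.05% in control and 27.6 to 39.7% in GOF libraries, and the ratio is 0.55 to 1.23 in control and 3.38 to 4.73 in GOF libraries.

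The receptor gene for PGF2α fell. Ptgfr (chromosome 3, 151796502 to 151837630, minus strand) was at 5.59, 5.33 and 7.22 FPKM in control and 1.87, 2 and 1.25 in GOF libraries. All GOF libraries lay well below all controls. GOF minus control was -1.99 on the log2 scale (SE 0.24, 95% interval -2.56 to -1.43, edgeR adjusted p = 0.0018), a 3.97-fold lower level, and it was -2.17 to -1.38 over the alternatives. The within-animal differences were -2.30 and -2.02, so the fall was alike in both animals that gave both cultures.

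The other prostanoid receptors were read from a list of 4 genes, of which 2 were tested and both fell. Ptgir, the prostacyclin receptor gene, was at 3.73, 3.1 and 3.53 FPKM in control and 0.497, 0.618 and 0.254 in GOF libraries (log2 fold change -2.94, SE 0.31, edgeR adjusted p = 0.00097). Tbxa2r, the thromboxane receptor gene, was at 13.7, 11.6 and 9.63 FPKM in control and 3.37, 2.46 and 4.77 in GOF libraries (log2 fold change -1.74, SE 0.33, edgeR adjusted p = 0.00937). For both, every GOF library lay below every control. The PGD2 receptor genes Ptgdr and Ptgdr2 had at most 10 fragments in any library and were not tested. With Ptgfr, 3 of the 6 tested receptor genes outside EP3 were called lower and 3 (Ptger1, Ptger2 and Ptger4) were not called. Ptger3 was the only 1 of the 7 tested that was called higher. Over all tested genes, 5.64% were called lower and 6.69% higher.

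Genes around the 10 were read from 7 lists with 105 genes, of which 81 were tested, 14 called higher and 9 lower. Over all tested genes, 6.69% were called higher and 5.64% lower. The median log2 fold change of the lists was 0.08 (all tested genes, -0.02). These lists, too, were chosen with earlier results of these data known. Upstream, 7 of 17 phospholipase A2 genes were tested, 2 of them called higher and none lower (median log2 fold change 0.33). Pla2g4a, the cytosolic enzyme that chiefly supplies the cyclooxygenases, was at 66.6, 58.3 and 54 FPKM in control and 106, 138 and 114 in GOF libraries, without overlap (log2 fold change 1.02, SE 0.18, edgeR adjusted p = 0.00787). Its fold was at the threshold: the log2 fold change was 0.82 with the animals as a replicate block, 0.83 without GOF replicate 1 and 0.96 without control replicate 2, and without control replicate 1 the gene was not called. Pla2g5 had 7, 4 and 3 fragments in control and 16, 18 and 14 in GOF libraries (log2 fold change 1.69, edgeR adjusted p = 0.0357), and the call was lost with DESeq2 (adjusted p = 0.0689), with the animals as a replicate block (adjusted p = 0.145) and without any library but control replicate 0 (adjusted p = 0.0609 to 0.147).

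Of 8 other synthases, all were tested and 2 were called higher, against 6.69% of all tested genes (median log2 fold change 0.05). Akr1b3, an aldo-keto reductase with PGF synthase activity, was at 48.5, 31.7 and 35.7 FPKM in control and 92.6, 104 and 74 in GOF libraries (log2 fold change 1.19, SE 0.19, edgeR adjusted p = 0.00544). With the animals as a replicate block its log2 fold change was 0.99. Akr1c18, whose product breaks down progesterone and can also act on prostaglandins, was low, at 0.0417, 0.0603 and 0.129 FPKM in control and 0.791, 1.31 and 0.277 in GOF libraries (log2 fold change 3.41, SE 0.74, edgeR adjusted p = 0.0162). Without control replicate 1 and without GOF replicate 0 its adjusted p was 0.0626 and 0.0531. The constitutive PGE2 synthase genes Ptges2 and Ptges3 were not called, at log2 fold changes of -0.23 and 0.09 with edgeR adjusted p = 0.402 and 0.702. None of the 6 transport and inactivation genes was called (median log2 fold change 0.30), where edgeR gave 1 of them an adjusted p under 0.05. That gene, Slco2a1, the prostaglandin uptake carrier, was at 0.437, 0.84 and 0.74 FPKM in control and 1.92, 1.32 and 1.14 in GOF libraries (log2 fold change 0.99, SE 0.27, adjusted p = 0.0371), and it was past 2-fold with the animals as a replicate block (1.23). Hpgd, the enzyme that inactivates PGE2, was at 0.326 ± 0.256 FPKM in control and 0.369 ± 0.305 in GOF libraries (SD, n = 3), with an interval too wide to tell a change (log2 fold change 0.24, SE 0.76, edgeR adjusted p = 0.853).

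The lipoxygenase and leukotriene branch competes for the same arachidonic acid. Of its 13 genes 7 were tested, with a median log2 fold change of 1.39, which is the value of Aloxe3, a low gene. Of these, 4 were called higher (against 6.69% of all tested genes) and none lower (against 5.64%). All 4 were below 3 FPKM in each library. Alox12 had 4, 6 and 12 fragments in control and 68, 75 and 46 in GOF libraries (log2 fold change 3.05, SE 0.43, edgeR adjusted p = 0.00317). Alox5, the enzyme that starts leukotriene synthesis, was at 0.118, 0.198 and 0.197 FPKM in control and 0.874, 0.423 and 2.72 in GOF libraries, highest in GOF replicate 2 (log2 fold change 3.04, SE 0.67, edgeR adjusted p = 0.0179). Without control replicate 1 or 2 its adjusted p was 0.0582 and 0.0524. Macrophage markers, of which 7 of 10 were tested and Csf1r was called higher, summed to 13.3 to 23.6 FPKM in control and 10.4 to 29.2 in GOF libraries, with Fcgr1 at no more than 3 fragments, and their part in the Alox5 values was not tested. Aloxe3 had 8, 13 and 20 fragments in control and 41, 36 and 33 in GOF libraries (log2 fold change 1.39, edgeR adjusted p = 0.0299), and its adjusted p was 0.0509 to 0.124 without any 1 of 5 libraries (control replicates 0 and 1 and every GOF replicate) and 0.0655 with the animals as a replicate block. Cysltr1, a receptor for cysteinyl leukotrienes, had 2, 0 and 1 fragments in control and 27, 24 and 29 in GOF libraries, at least 8.36-fold higher against a floor of 3 fragments per library (edgeR adjusted p = 0.00264).

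**Figure D4:**
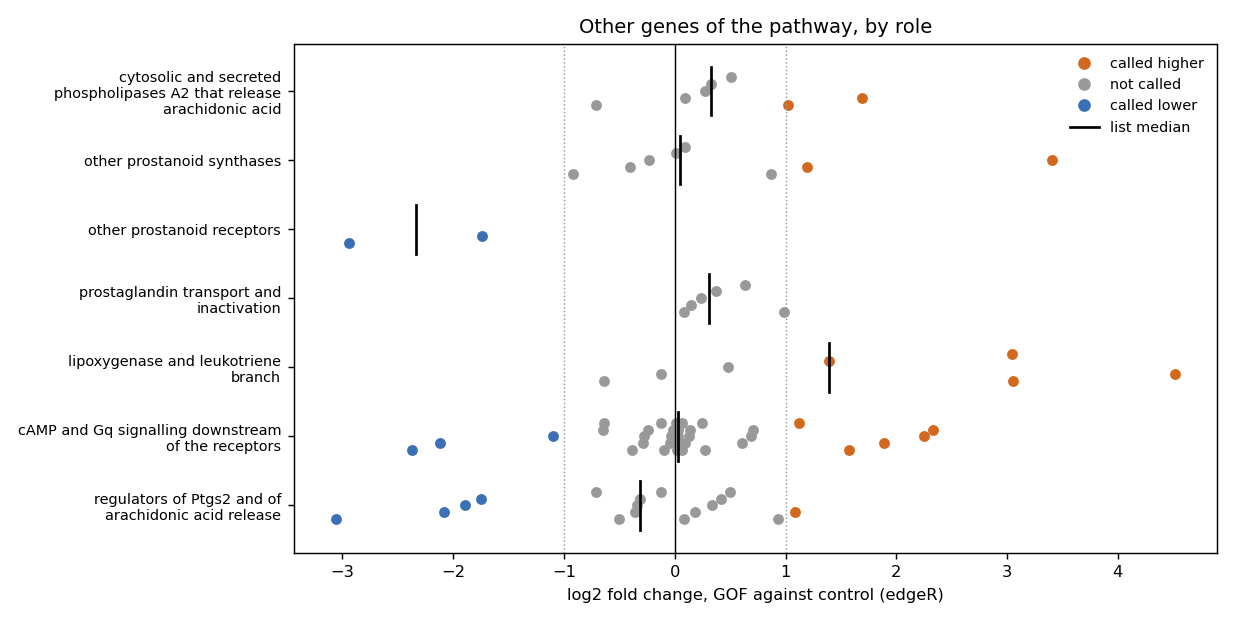
Log2 fold change, GOF against control (horizontal axis), of the 81 tested genes of the 7 other lists, one dot per gene and a vertical bar at each list's median, with dotted lines at a 2-fold change. Both other receptors lie at the left, 4 of 7 lipoxygenase and leukotriene genes at the right, and most cAMP and Gq genes near 0; the rightmost dot, Cysltr1, is a fitted value for a gene near 0 fragments in control.

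Downstream of the receptors, 34 of 37 genes of cAMP and Gq signaling were tested, with a median log2 fold change of 0.02. Of these, 5 were called higher (against 6.69% of all tested genes) and 3 lower (against 5.64%). Gnai1, a subunit of the inhibitory G proteins that EP3 couples to, was at 14.1, 12.1 and 12.4 FPKM in control and 31, 33.4 and 49.6 in GOF libraries (log2 fold change 1.57, SE 0.17, edgeR adjusted p = 0.00108). Gnai2 and Gnai3, which were more abundant, were not called. Adcy1, an adenylyl cyclase, was at 0.892 ± 0.0458 FPKM in control and 3.87 ± 1.53 in GOF libraries (log2 fold change 2.25, adjusted p = 0.00248). The cAMP phosphodiesterase genes Pde4b and Pde3b fell, from 22.8 ± 1.52 to 5.51 ± 0.518 FPKM (log2 fold change -2.12, edgeR adjusted p = 0.000181) and from 6.73 ± 2.86 to 1.39 ± 0.242 FPKM (-2.37, adjusted p = 0.000748). With the animals as a replicate block, and so from 2 animals, Pde3a was also called lower (log2 fold change -1.04). Without the block its log2 fold change was -0.65. Of the phospholipase C genes that Gq activates, Plcb1 rose from 1.48 ± 0.114 to 5.64 ± 0.981 FPKM (log2 fold change 1.89, edgeR adjusted p = 0.000296), and Plcb4 fell from 13.5 ± 0.661 to 6.2 ± 2.4 FPKM (-1.10, adjusted p = 0.0149). The call for Plcb4 was lost with the animals as a replicate block (log2 fold change -0.91), when GOF replicate 0 (adjusted p = 0.0699) or 1 (log2 fold change -0.92) was left out. Grk5, a kinase that desensitizes such receptors, rose from 7.38 ± 1 to 16.4 ± 0.824 FPKM (log2 fold change 1.12, edgeR adjusted p = 0.00199). Rapgef4, a cAMP sensor, had 3 to 9 fragments in control and 23 to 43 in GOF libraries (log2 fold change 2.33, edgeR adjusted p = 0.016), and its adjusted p was 0.0511 to 0.0622 without control replicate 1 or 2 or GOF replicate 1.

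Known regulators of Ptgs2 and of arachidonic acid release formed a list of 20 genes, of which 17 were tested, with a median log2 fold change of -0.31. Of these, 1 was called higher (against 6.69% of all tested genes) and 4 lower (against 5.64%). Il1r1, the interleukin-1 receptor gene, was at 23.5, 28.7 and 39.9 FPKM in control and 8.87, 8.36 and 4.38 in GOF libraries (log2 fold change -2.08, SE 0.32, edgeR adjusted p = 0.00468). Its antagonist Il1rn was at 24.8, 23.2 and 28.3 FPKM in control and 0.859, 6.06 and 0.764 in GOF libraries (log2 fold change -3.06, SE 0.83, edgeR adjusted p = 0.0369), and without any 1 control library or GOF replicate 0 its adjusted p was 0.0558 to 0.116. Egr1, a zinc finger factor of the immediate early response, fell from 7.55 ± 1.2 to 2.34 ± 0.664 FPKM (log2 fold change -1.75, edgeR adjusted p = 0.00331). Cebpd, a factor known to bind the Ptgs2 promoter, was at 78.6, 42.7 and 35.6 FPKM in control and 14, 11.5 and 18.8 in GOF libraries (log2 fold change -1.89, SE 0.41, edgeR adjusted p = 0.0173), and without GOF replicate 0 or 1 its adjusted p was 0.079 and 0.0583. Atf3, a stress-induced factor, was the 1 gene called higher, at 1.1 ± 0.265 FPKM in control and 2.24 ± 0.572 in GOF libraries (log2 fold change 1.09, edgeR adjusted p = 0.0337), and without any 1 library but control replicate 0 or GOF replicate 0 its adjusted p was 0.0826 to 0.108. The inducers Il1b and Tnf had 0 and at most 3 fragments in any library.

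RefSeq promoter windows (250 bases before to 50 after the start, GRCm38.p6) were at hand for 8 of the 10 genes, all but Ptgis and Ptger1. These windows were searched on both strands. None of the 8 held the TCF/LEF core (CTTTGAT or CTTTGTT), which 9.33% of 32851 promoters held, nor the cAMP response element TGACGTCA (1.79%), its form TGACGCAA (0.49%) or the TATA box TATAAA (13.6%). The absence says only that these letters are not in these windows. The GC box GGGCGG, searched after the sequences were seen, was in 5 of the 8 (Ptgs2, Ptges, Ptger3, Ptger4 and Ptgfr), against 35.7% of all promoters. Of these 5 genes 3 rose, 1 fell and 1 was not called. The 150 bases before the starts of Ptges (chr2:30903298-30903447, minus strand) and Ptger3 (chr3:157566726-157566875, plus strand) are shown because these were the synthase and the receptor gene called higher among the 10, with the GC box on either strand in capitals.
Ptges: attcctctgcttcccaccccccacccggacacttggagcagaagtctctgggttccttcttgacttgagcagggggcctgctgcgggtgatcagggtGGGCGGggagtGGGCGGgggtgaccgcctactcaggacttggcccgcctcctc
Ptger3: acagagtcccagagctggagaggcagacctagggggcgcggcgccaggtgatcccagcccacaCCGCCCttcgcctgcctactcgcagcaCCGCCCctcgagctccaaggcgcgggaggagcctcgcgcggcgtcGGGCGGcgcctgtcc
The Ptges window held the GC box on the gene's strand at -53 to -48 and -42 to -37 from the RefSeq start, which lies inside the longer GENCODE gene. That of Ptger3 held it at -15 to -10, and 2 more on the other strand.

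Overlapping genes could add fragments to some of the 10 if counting ignored the strand. The pseudogene Gm15937 shared 15.3% of the exon bases of Ptger4 and was at 0.315 ± 0.108 FPKM in control and 0.199 ± 0.0625 in GOF libraries, far below Ptger4. Overlaps with 1110018N20Rik at Ptgis, Gm43621 at Ptgs1, Gm13400 at Ptges, Gm14291 at Ptgis, Gm49364 and Gm17173 at Ptger2, Ttc33 at Ptger4 and Gm43618 at Ptgfr covered at most 6.08% of exon bases each.

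The genes whose log2 CPM followed that of Ptges most closely over the 6 libraries, among the 12018 genes whose mean FPKM was 1 or more, were Alkbh4, Itih5 and Pdlim5, with Pearson r of 0.9989, 0.9985 and 0.9983. For Ptgs2 they were Eva1a, Ubash3b and Ddah1, with r of 0.9995, 0.9988 and 0.9988. These r describe 6 libraries that fall into 2 groups, so any gene with a difference between groups that is large beside its spread gives a high r, whatever its size: Alkbh4 differed by 0.54 on the log2 scale and Itih5 by 5.67.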

How the data were processed

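Stranded TruSeq libraries of 6 cultures were sequenced, and the authors' processing used TopHat on mm10 followed by Cuffdiff. The estimated counts are the fragments per gene and library that the authors deposited before scaling, and the authors' FPKM add Cuffdiff's scaling for transcript length and library. By the paper, Cuffdiff ran with standard settings, and whether the library type (the strand) was set is not stated. A further 3 columns of per-library values and a lncRNA table were not used. Of the listed genes, 32 whose estimate failed were left out, none of them among the 10.

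Symbols came from GENCODE M21 annotation of GRCm38 (97.9% of identifiers matched). Estimated counts (4.95% not whole) were rounded and fitted across all genes in R 4.3.3 with edgeR 4.0.16 (TMM, filterByExpr, quasi-likelihood test, Benjamini-Hochberg adjustment) without a block, and the script was tested on simulated data. FPKM of single genes were compared with a two-sided exact permutation test, whose smallest p is 0.1. The alternatives were DESeq2 1.42.0, other normalizations (library totals, upper quartile), other filters (none, FPKM of 1 in 3 libraries), limma 3.58.1 on log2 FPKM with a pseudocount of 1 or 0.1, blocks by label number or animal, an estimated correlation within animals, and each library left out, and R package data.table (version 1.17.8) read the files. Deviations from group means correlated at 0.408 and 0.46 between cultures of one animal, and at -0.441 to 0.054 between cultures with the same label number. Named were all 10 genes, called genes of each list (or the 1 with the smallest adjusted p), overlapping genes (not all are reported here) and the 3 most alike to 2 of the 10; Ptges2, Ptges3, Hpgd, Gnai2, Gnai3, Pde3a, Il1b, Tnf, Ptgdr, Ptgdr2, Axin2, Ctnnb1 and the called cell type markers were added with their values known. The members and lists were chosen with earlier results of these data known.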

Additional observations from a re-analysis of the deposited data

How the results depend on the processing

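Of the 10 genes, 4 were called higher under most settings and 3 with the animals as a replicate block, without control replicate 1 and without GOF replicate 1, where Ptgs1 was lost, while 1 was called lower throughout. Of the other pathway genes, 14 were called higher, against 7 with a minimum FPKM of 1 in 3 libraries (68 tested), 5 with limma on log2(FPKM + 1) and 9 with a replicate block by label number, a number that does not mark an animal. Leaving out 1 library gave 7 to 13 higher, lowest without control replicate 1 (7), then control replicate 2 and GOF replicate 1 (9 each), and 6 to 9 lower. The minimum tests fewer low genes, and the pseudocount of 1 shrinks their folds. The cause of the other shifts was not tested. None of the log2 fold changes of the 9 tested genes among the 10 changed sign under the alternatives. Signs of the other pathway genes were not compared across settings. The animal block leaves 1 residual degree of freedom. Its fold changes come from the 2 animals that gave both cultures, since replicate 1 of either group has an animal of its own. Ptgds could not be tested at this depth, and the control levels of Pla2g5 and Cysltr1 rest on 3 to 7 and 0 to 2 fragments per library.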
